A study of Volvox carteri with 4 samples.

Results

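Volvox carteri is a spherical green alga with 2 cell-types, large reproductive gonidia and small flagellated somatic cells. The genes described here are abundant in gonidia, sparse in somatic cells, and not among the loci of the gene family and pathway lists, used here, of the study that generated the libraries. A gene was included when its mean gonidial level was at least 100 CPM (the count divided by the library total and multiplied by 1000000), when that mean was at least 16 times the somatic mean, and when at least 1 somatic library held more than 3 counts. The rule found 80 of 16008 gene models. The genes were thus chosen by measured gonidial and somatic levels, and level and ratio are given below as descriptions and are not tested.

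Polyadenylated RNA was sequenced from gonidial cells (n = 2) and from somatic cells (n = 2) of the female strain Eve. Spheroids were adults that had hatched but whose gonidia were still undivided. They were taken at hour 42 of a 48 hr cycle, when the second light period had run for 6 hr. Each library was made from a pool of cells, and only a single cell-type was prepared from any culture, so gonidia and soma of the same spheroids were not compared. CPM is a share of the counts of a library, so the amount of RNA per cell was not measured in either cell-type.

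A gonidium is the asexual germ cell of the spheroid. It grows large without dividing and then cleaves rapidly to make a complete juvenile spheroid, while somatic cells swim, secrete extracellular matrix, and eventually senesce and die. Genes that repress growth and reproduction in the soma, with regA as the best known, keep somatic cells from becoming germ cells.

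The gonidial libraries held 11583555 and 11650101 counts and the somatic libraries 10838222 and 13104583, so a floor of 3 counts corresponded to between 0.229 and 0.277 CPM. Markers were checked against the labels. The somatic regulator regA had 0.0863 and 0 CPM in gonidia, against 44.8 and 60.0 CPM in somatic cells. The summed level of 83 axonemal genes, which build the flagellar shaft, was 1268 and 1204 CPM in gonidia, against 27766 and 31479 CPM in somatic cells, and 82 of the 83 genes were higher in somatic cells. The 19 gonidial cDNAs of an earlier study summed to 87339 and 93034 CPM in gonidia, against 53851 and 43766 CPM in somatic cells. Of these 19, 17 were higher in gonidia and 2 in somatic cells, and 9 were called gonidial by the test described below.

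The 80 genes together took 3.51% ± 0.110 of all gonidial counts and 0.0833% ± 0.0262 of all somatic counts (SD, n = 2 each). Their summed level was 35870 and 34317 CPM in gonidia, against 648 and 1018 CPM in somatic cells. This mass was unevenly spread. A single gene made up 20.3% of the summed gonidial level, the first 4 genes made up 39.1%, and the first 10 made up 57.6%, which left 42.4% to the other 70. Mean gonidial levels ran between 100 and 7113 CPM with a median of 191 CPM, and 8 genes had 1000 CPM or more. Of the 100 genes with the highest gonidial CPM in the whole table, 4 were among the 80. CPM is not scaled by transcript length, so these levels rank reads and not transcripts, and a long gene collects more reads than a short one.

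**Figure D1:**
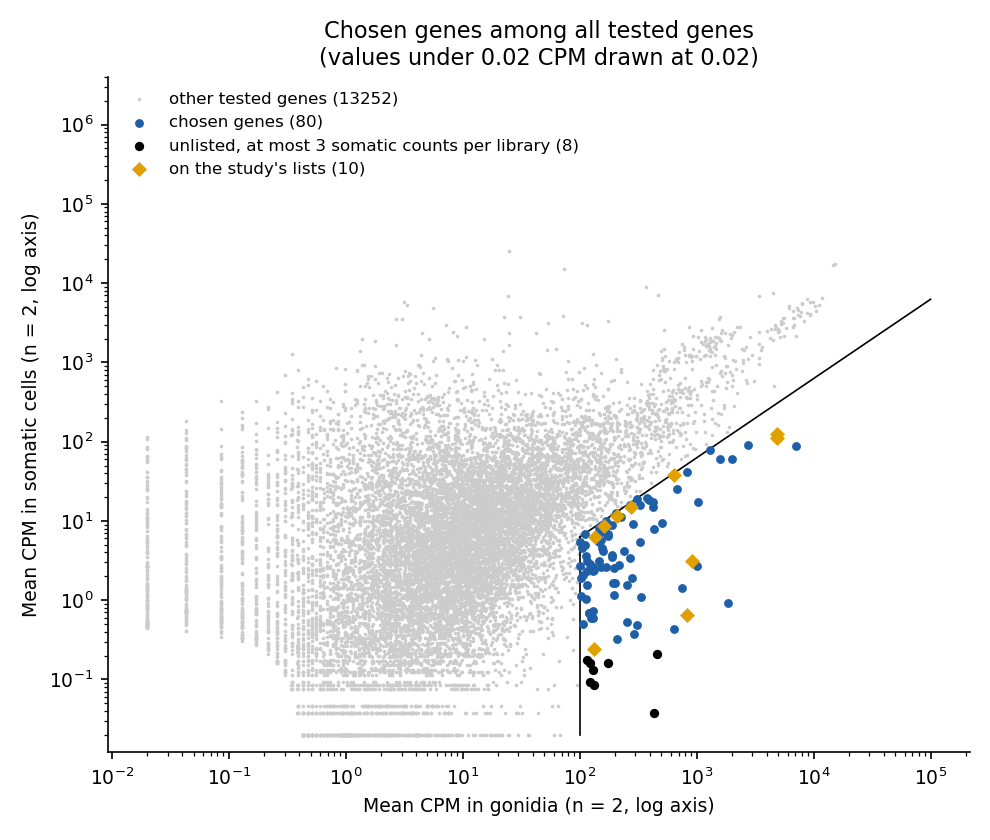
Mean level of each tested gene in gonidia (x axis, CPM, log axis) and in somatic cells (y axis, CPM, log axis), n = 2 libraries each. Blue points are the 80 genes, black points are 8 unlisted genes at most 3 counts deep in each somatic library, yellow diamonds are 10 genes on the study's lists, and the solid lines are the limits of 100 CPM and a ratio of 16. The 80 genes fill the corner below the cloud of the other genes, at 100 to 7113 CPM in gonidia.

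All 80 genes were called higher in gonidia by edgeR's quasi-likelihood test (adjusted p below 0.05, 2-fold or more), as were 46.7% of the 13350 genes tested. All 80 also had both gonidial libraries above both somatic libraries, as did 55.0% of tested genes. Since the rule used this contrast, nothing is read from either count. The ratio of gonidial to somatic mean CPM ran between 16.2 and 2004, with a median of 50.6. It lay under 32 in 31 genes, between 32 and 64 in 22 genes, and over 100 in 21 genes. In 64 genes each gonidial library was at least 16 times each somatic library. The other 16 had at least a single pairing of libraries below that, the lowest at 10.6.

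The locus identifiers of these genes matched none of the RefSeq records used here and are on none of those lists, so no gene name, product or sequence is given for them. They are identified by locus number, in which the first part is the scaffold of the version 2 genome and the last part a running number along it. Of the 80, 78 carried such a number and 2 were older version 2.0 gene models without one.

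The most read gene was Vocar.0015s0197, with 6704 and 7522 CPM in gonidia, against 68.7 and 107.7 CPM in somatic cells. It ranked 22 among all genes by gonidial CPM. Its ratio was 80.6, and the 4 pairings of a gonidial with a somatic library gave ratios of 62.3 to 109.4. Without it the other genes still summed to 29166 and 26795 CPM in gonidia, against 580 and 911 CPM in somatic cells.

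Vocar.0030s0055 followed, with 2767 and 2749 CPM in gonidia, against 55.3 and 125 CPM in somatic cells. The gonidial libraries nearly coincided, and somatic replicate 2 held 2.27 times the level of somatic replicate 1. Vocar.0006s0028 had the same shape, with 2086 and 1921 CPM in gonidia, against 39.8 and 81.0 CPM in somatic cells. Vocar.0009s0186 had 1602 and 1548 CPM in gonidia, against 72.8 and 48.1 CPM in somatic cells, and here replicate 1 was the higher somatic library. Vocar.0011s0335 had 1323 and 1282 CPM in gonidia, against 56.5 and 102.6 CPM in somatic cells. Its ratio of 16.4 was close to the limit, and the pairing with the higher somatic library gave 12.5. Vocar.0015s0197 and these 4 genes had the 5 highest somatic levels of the set, with somatic means of 60.4 to 90.3 CPM.

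A far lower somatic level was found in Vocar.0003s0026, the fourth gene by gonidial level. It was counted 21971 and 20911 times in gonidia, against 15 and 6 times in somatic cells. Its ratio of 2004 was the highest of the 80, with a counting interval (95%, exact, counts pooled by cell-type) of 1377 to 3399. Its neighbour Vocar.0003s0025 was counted 7808 and 7132 times in gonidia, against 7 and 3 times in somatic cells, for a ratio of 1470 and an interval of 837 to 3211. Only these 2 genes of the 80 had ratios over 1000. The rule leaves out genes with at most 3 counts in each somatic library, some of which had higher ratios. The adjacent Vocar.0003s0023, left out in this way, had a ratio of 2207, and the listed gene Vocar.0033s0069 had 1282. PCR reads without molecular tags are not independent molecules, so the intervals given here cover counting error only.

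The next 3 genes by ratio were less abundant. Vocar.0007s0316 was counted 3766 and 3066 times in gonidia, against 4 and 5 times in somatic cells, a ratio of 784. Vocar.0024s0029 was counted 2609 and 2228 times in gonidia, against 2 and 6 times in somatic cells, a ratio of 648. Vocar.0043s0060 was counted 3688 and 3459 times in gonidia, against 4 and 8 times in somatic cells, a ratio of 628. Their intervals overlapped widely, at 412 to 1711, 316 to 1443 and 351 to 1188, so their order by ratio is not resolved at this depth.

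The remaining genes among the 10 most read had ratios between 19.9 and 523. Vocar20012353m.g had 1046 and 955 CPM in gonidia, against 2.12 and 3.20 CPM in somatic cells, and Vocar.0083s0018 had 760 and 745 CPM in gonidia, against 1.20 and 1.68 CPM in somatic cells. Vocar.0013s0151 had 1110 and 936 CPM in gonidia, against 15.96 and 18.3 CPM in somatic cells. Vocar.0064s0016 had 908 and 742 CPM in gonidia, against 28.9 and 54.0 CPM in somatic cells, and one of its pairings gave a ratio of 13.7. Abundance in gonidia thus came with ratios of 16.4 to 2004 among these 10 genes.

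**Figure D2:**
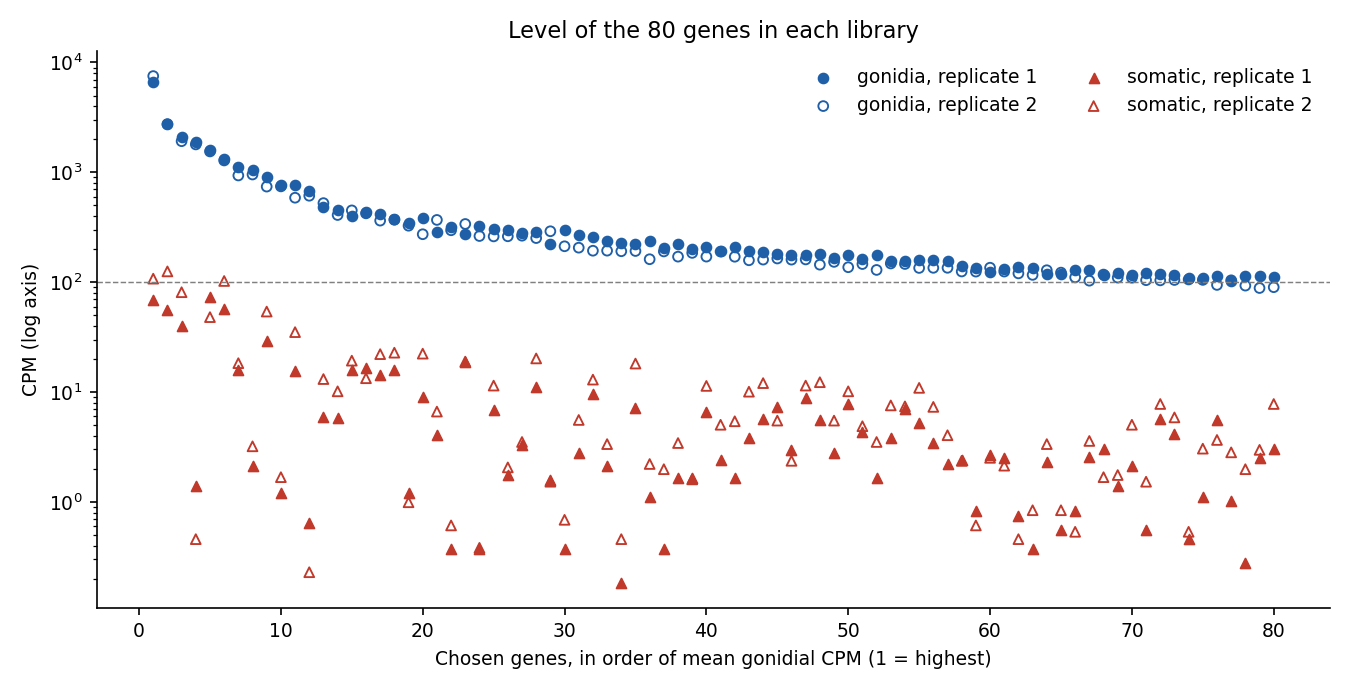
CPM (log axis) of each of the 80 genes in each library, with genes ordered by mean gonidial level. Blue circles are gonidial and red triangles somatic libraries, filled for replicate 1 and open for replicate 2, and the dashed line marks 100 CPM. Gonidial replicates lie on or near each other in every gene, whereas somatic levels run between 0.185 and 125 CPM and open triangles mostly lie above filled ones.

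Several genes lay close to the limits. By level, the last genes inside were Vocar.0015s0196 (mean gonidial level 100.4 CPM), Vocar.0009s0181 (100.8 CPM) and Vocar.0002s0580 (102.9 CPM), and the first outside were Vocar.0020s0045 (99.7 CPM), Vocar.0021s0026 (98.7 CPM) and Vocar.0012s0304 (98.6 CPM). By ratio, the last inside were Vocar.0004s0198 (16.2), Vocar.0019s0168 (16.3) and Vocar.0011s0335 (16.4), and the first outside were Vocar.0001s0120 (15.3), Vocar.0001s1412 (15.2) and Vocar.0014s0217 (14.96). By somatic count, Vocar.0007s0316 with 4 and 5 counts was just inside, and Vocar.0003s0023 with 2 and 3 counts was just outside. In all, 8 unlisted genes passed level and ratio but had at most 3 counts in each somatic library.

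Gonidial replicates were close for these genes. None of the 80 differed more than 2-fold between gonidial libraries, and neither did any of the 1053 genes with at least 100 CPM in gonidia. The median coefficient of variation was 8.99%. Gonidial replicate 2 was the lower library in 69 of the 80, with a median of 0.901 times replicate 1, against 0.950 times over those 1053 genes, of which 65.5% were lower in replicate 2. The largest gonidial differences were in Vocar.0025s0171, with 239 and 162 CPM, in Vocar.0001s1802, with 384 and 273 CPM, and in Vocar20012412m.g, with 297 and 212 CPM. In these 3 genes the somatic levels were 1.11 and 2.21 CPM, 9.04 and 22.4 CPM, and 0.369 and 0.687 CPM, so the groups stayed well apart.

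Somatic replicates were further apart. Somatic replicate 2 was the higher library in 63 of the 80 genes (78.8%), with a median of 1.56 times replicate 1. Over tested genes with a count in both somatic libraries, 67.7% were higher in replicate 2 and the median was 1.17 times. More than 2-fold separated the somatic libraries in 27 of the 80 (33.8%), against 14.5% of those 12468 tested genes. Of 29 genes with at least 50 counts in both somatic libraries, 26 (89.7%) were higher in replicate 2, the median was 1.65 times, and 9 (31.0%) differed more than 2-fold. Among 6942 tested genes with the same depth, 70.4% were higher in replicate 2, the median was 1.15 times and 3.36% differed more than 2-fold. Among the 1684 of those that were called gonidial, 75.8% were higher in replicate 2, the median was 1.25 times and 6.71% differed more than 2-fold. The 10 listed genes past the same level and ratio had a median of 1.67 times.

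The extremes were genes of few somatic counts. Vocar.0002s0580 was counted 1307 and 1084 times in gonidia, against 3 and 26 times in somatic cells. Vocar.0025s0170 was counted 2384 and 2219 times in gonidia, against 4 and 26 times in somatic cells. Vocar.0002s0179 was counted 2425 and 1986 times in gonidia, against 18 and 71 times in somatic cells. In each of them somatic replicate 2 was the higher by between 3.26 and 7.17 times, so that library supplied most of the somatic level behind their ratios of 91.1, 168 and 53.7.

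Expressed against the gonidial mean of the same gene, the somatic level had a median of 1.77% in replicate 1 (0.0750 to 6.18%) and 2.73% in replicate 2 (0.0248 to 8.79%). The lowest percentages among the 80 were those of Vocar.0003s0026, at 0.0750% in replicate 1 and 0.0248% in replicate 2. For that gene and Vocar.0003s0025 the order of the somatic libraries was the reverse of most others, with replicate 2 at 0.331 and 0.354 times replicate 1. The cause of the difference between the somatic libraries was not tested.

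**Figure D3:**
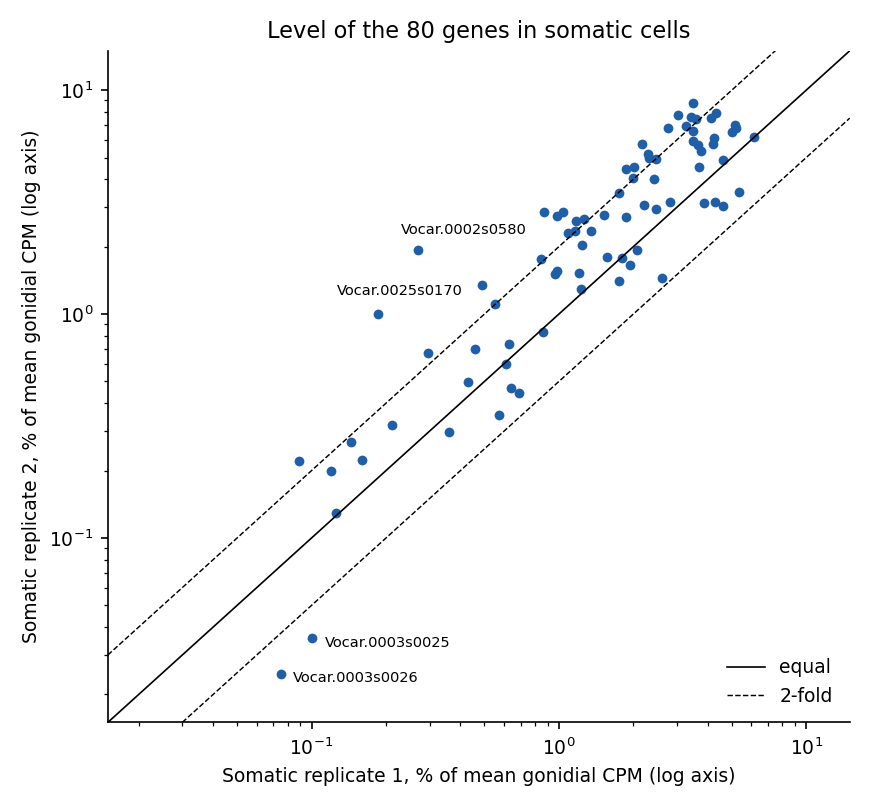
Somatic level of each of the 80 genes as a percentage of its own mean gonidial CPM, in somatic replicate 1 (x axis) and replicate 2 (y axis), both log axes. The solid line marks equal values and the dashed lines a 2-fold difference. Most points (63 of 80) lie above the solid line, and Vocar.0003s0025 and Vocar.0003s0026 lie furthest below it, with the lowest percentages in replicate 2.

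The positions of the genes were not used to choose them. The 78 numbered genes lay on 35 scaffolds, with 1 gene on each of 19 scaffolds and at most 9 on any. Adjacent locus numbers were held by 8 genes (10.3%) in 4 pairs, and 12 (15.4%) had another of the genes within 5 numbers. When the rule was turned round, to unlisted genes abundant in somatic cells and sparse in gonidia, 11.7% of 342 numbered genes were adjacent to another of their kind and 29.2% had another within 5 numbers. Among 5969 numbered genes called gonidial these shares were 75.5% and 98.4%. Such shares rise with the number of genes in a set, so sets of 78, 342 and 5969 genes cannot be compared directly. Of 149 tested immediate neighbours of the 78 genes, 76 (51.0%) were called gonidial, against 47.2% of the neighbours of all tested genes and 55.4% of the neighbours of genes called gonidial. The neighbours include the 8 adjacent genes themselves, which the rule chose by this contrast, so no excess is read from the 51.0%. The libraries do not keep strand, so reads from overlapping neighbours on opposite strands cannot be told apart, and whether adjacent genes are copies of each other was not examined.

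The pair of highest ratio, Vocar.0003s0025 and Vocar.0003s0026, stood in a run of 5 consecutive loci that all lay far higher in gonidia. Vocar.0003s0023 was counted 5667 and 4930 times in gonidia, against 2 and 3 times in somatic cells, and missed the set only by its somatic counts. Vocar.0003s0024 was counted 164 and 131 times in gonidia and not at all in somatic cells, where the floor of 3 counts is 0.277 and 0.229 CPM. Vocar.0003s0027 was counted 204 and 138 times in gonidia, against 3 and 4 times in somatic cells, a ratio of 50.6. Levels within the run were very uneven, between 12.7 and 1846 CPM in gonidia. Its ends are not sharp, since the loci on either side were also higher in gonidia, at low counts. Vocar.0003s0022 was counted 14 and 11 times in gonidia and not at all in somatic cells. Vocar.0003s0028 was counted 63 and 32 times in gonidia, against 1 and 6 times in somatic cells.

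A second run began with Vocar.0025s0170 and Vocar.0025s0171, which had ratios of 168 and 121. The next 3 loci were below the level limit but past the ratio, with 62.9, 21.5 and 53.1 CPM in gonidia for Vocar.0025s0172, Vocar.0025s0173 and Vocar.0025s0174, against 1.41, 0.452 and 0.337 CPM in somatic cells. Their ratios were 44.6, 47.6 and 158. Before the pair the ratios were lower, at 5.01, 1.65 and 9.85 for Vocar.0025s0167, Vocar.0025s0168 and Vocar.0025s0169. Counts were low there. Vocar.0025s0168 was counted 9 and 1 times in gonidia, against 4 and 2 times in somatic cells, so its ratio is poorly known. Beyond these stood IDH3, listed by the study for an isocitrate dehydrogenase, an enzyme of the TCA cycle, counted 755 and 564 times in gonidia, against 5 and 7 times in somatic cells. The run ended at Vocar.0025s0175, which was counted 33 and 46 times in gonidia, against 2844 and 4307 times in somatic cells.

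The other pairs stood alone. Vocar.0024s0159 had 177 and 160 CPM in gonidia, against 2.95 and 2.37 CPM in somatic cells, and Vocar.0024s0160 had 342 and 327 CPM in gonidia, against 1.20 and 0.992 CPM in somatic cells. The loci on either side of them, Vocar.0024s0158 and Vocar.0024s0161, had ratios of 0.260 and 1.93. Vocar.0015s0196, at the level limit with 111 and 90.0 CPM in gonidia, against 3.04 and 7.78 CPM in somatic cells, adjoined the far more abundant Vocar.0015s0197. On their outer sides lay Vocar.0015s0195, with a ratio of 0.499, and a matrix protein locus listed as vmp34 and vmp36, with a ratio of 0.0525.

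**Figure D4:**
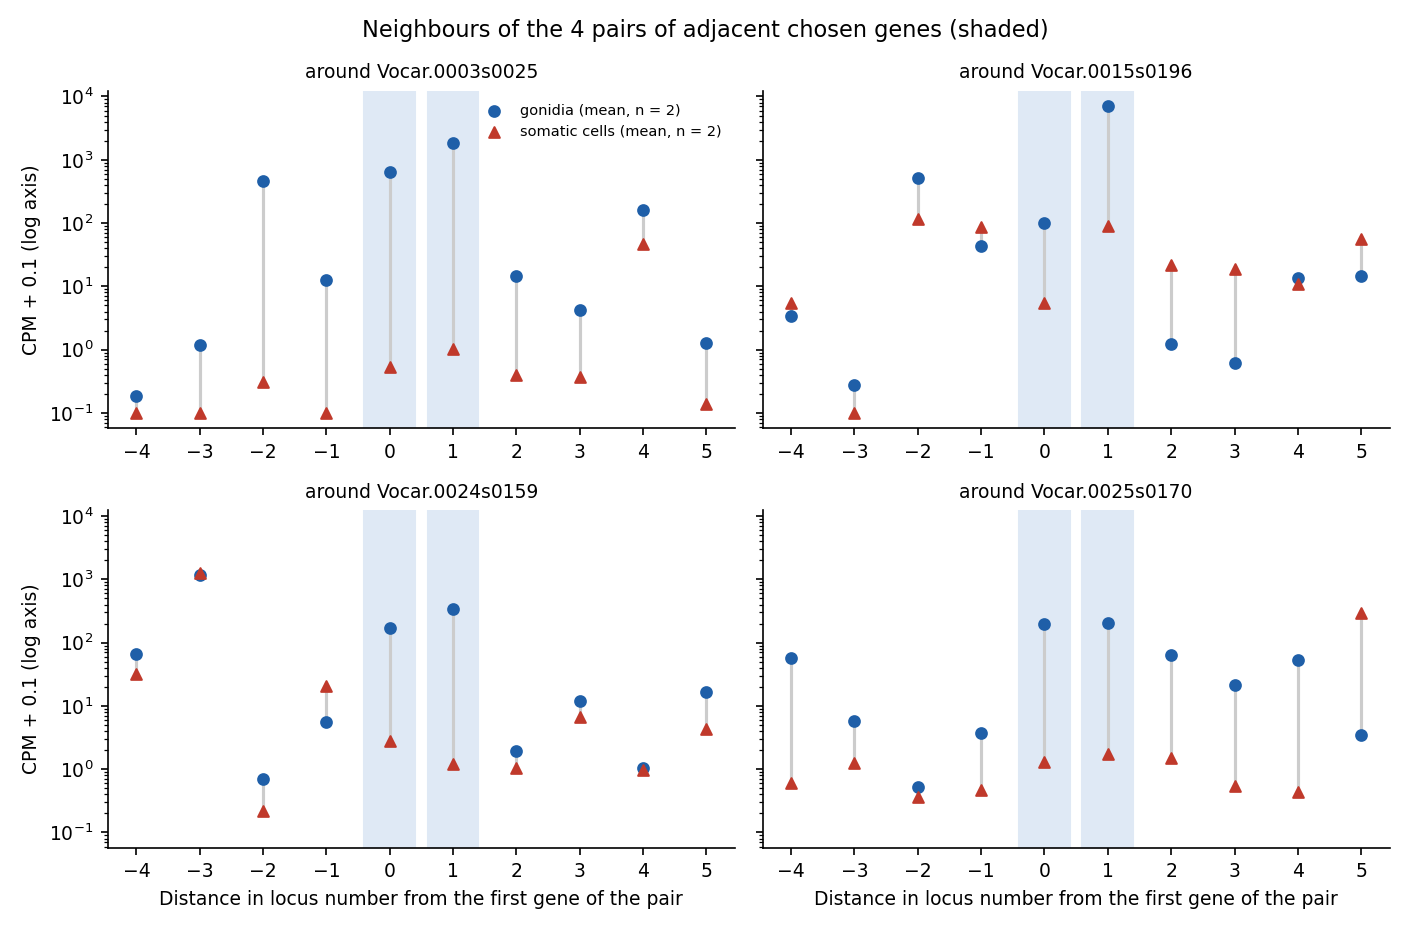
Mean CPM plus 0.1 (log axis) in gonidia (blue circles) and somatic cells (red triangles), n = 2 each, for loci 4 numbers before to 5 numbers after the first gene of each adjacent pair, which is shaded. In the panels of Vocar.0003s0025 and Vocar.0025s0170 the neighbours also lie higher in gonidia, up to Vocar.0025s0175 at a distance of 5, whereas 3 of the 4 immediate neighbours in the other panels lie higher in somatic cells.

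Several of the 80 genes stood beside a gene that the study listed, and those neighbours differed widely in ratio. Vocar.0030s0055 adjoined G30 (gon30), a gonidial cDNA of earlier work, which was counted 33162 and 29630 times in gonidia, against 3849 and 9582 times in somatic cells. Gonidial counts of these neighbours were alike, at 32048 and 32029 for Vocar.0030s0055, but the ratio was 30.5 for Vocar.0030s0055 and 4.98 for G30. Vocar.0007s0316 adjoined PHOB, a starch phosphorylase gene, with a ratio of 7.48. Vocar.0042s0038 adjoined CP12, a small regulator of the Calvin cycle, with a ratio of 1.56.

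Some other listed neighbours were near equal in both cell-types, with ratios of 0.793 and 0.932 for OGD1 and SCLB1 of the TCA cycle list. Others were strongly somatic. Vocar.0007s0368 lay next to vmp37 and close to vmp1, both extracellular matrix genes, and vmp1 was counted 37 and 33 times in gonidia, against 39776 and 43770 times in somatic cells. Vocar.0016s0099 adjoined the basal body gene BUG14, which was counted 94 and 79 times in gonidia, against 9635 and 15687 times in somatic cells. Vocar.0006s0028 lay close to BUG19, of the same group, counted 40 and 34 times in gonidia, against 4988 and 5371 times in somatic cells.

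The study's lists, which hold 649 loci, contributed few genes with this pattern. Of 1053 genes at or above 100 CPM in gonidia, 98 passed the ratio, namely the 80 genes, the 8 with too few somatic counts, and 10 listed genes. By origin these were 88 of 865 unlisted genes (10.2%) and 10 of 188 listed genes (5.32%), a difference that was not tested. The 10 took 1.30% ± 0.0182 of gonidial counts (SD, n = 2), against 3.51% for the 80.

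Of the 10 listed genes, 4 were light-harvesting antenna genes of photosystem II, which collect light for photosynthesis. The most abundant, Vocar.0012s0221, had 4892 CPM in gonidia, against 123 CPM in somatic cells (means, n = 2 each). Genes of this antenna family are closely similar to each other, and only uniquely mapped reads were counted, so their levels are uncertain. A further 2 belonged to the Calvin cycle, TPIC1 and Vocar.0033s0069, and Vocar.0033s0069 had 834 CPM in gonidia, against 0.650 CPM in somatic cells. PYK1 (pyruvate kinase) and PEPC2 (phosphoenolpyruvate carboxylase) came from the glycolysis list, with ratios of 16.8 and 17.9. The last 2 were mrp2, from an earlier cDNA collection, with a ratio of 43.8, and Algal-CAM, a matrix protein, with a ratio of 543.

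The other biosynthetic lists held no gene past these limits. Of their tested genes, 25 of 28 were called gonidial for chlorophyll and tetrapyrrole synthesis, 33 of 38 for photosynthetic assembly factors, and 16 of 18 for fatty acid synthesis. Calls were made for 16 of 21 tested genes of starch synthesis, 8 of 11 of amino acid synthesis, and 5 of 19 of nucleotide sugars, beside 46.7% of all tested genes.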

How the data were processed

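The authors deposited raw counts. Single-end reads had been trimmed with Trimmomatic and aligned with STAR, and those mapped to a single place were assigned by HTSeq to merged version 2.1 and 2.0 gene models. Multi-mapping reads were not counted, which lowers genes with near-identical copies. From these counts, CPM was computed on column totals, and members were found by the stated rule, with every locus in the study's supplementary lists of gene families, pathways and earlier cDNAs left out. A further table of the study, of genes with extreme ratios, was not used here. The members and lists were chosen with earlier results of these data known.

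The background was fitted over all genes with edgeR 4.0.16 (quasi-likelihood test, Benjamini-Hochberg adjustment) in R 4.3.3, on all 4 libraries with cell-type as the only term. Following the study, library size was the total without the upper 0.3% quantile of counts, and genes without counts and then the bottom 10% by mean were removed, which left 13350 genes. Calls needed an adjusted p under 0.05 and a 2-fold change. The edgeR fit was tried on simulated counts.

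Genes named were the 10 of highest gonidial level, the 5 of largest ratio, the 5 of highest somatic level, the 3 nearest either side of the level and ratio limits, the 3 of largest difference between replicates in each cell-type, and adjacent genes. Genes beside these, listed genes and the genes at the somatic count limit were named after their values were seen. Alternatives were edgeR's TMM and DESeq2 1.42.0 size factors, plain totals, other filters, DESeq2's Wald test, a test against 2-fold, a replicate block, other limits of the rule, and leaving out each library. Replicates were separate cultures.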

Additional observations from a re-analysis of the deposited data

How the results depend on the processing

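All 80 genes still had both gonidial libraries above both somatic libraries under TMM and DESeq2 size factors. This was fixed by the rule, so nothing is read from it. On column totals, the lowest ratio of any pairing of libraries was 10.6. TMM and DESeq2 size factors moved the median log2 change of all tested genes by -0.59 and -0.71 from the background fit. That fit used totals without the upper 0.3% of counts. From column totals, where that median was 0.73, the moves were smaller. All these moves are too little to turn the direction of any of the 80. The number chosen depended on scaling: 52 genes with TMM and 49 with DESeq2 size factors, all of them among the 80. The median ratio of the original 80 genes was 36.8 and 33.9 under these scalings, against 50.6 on column totals. Under these scalings the median log2 change of all tested genes was 0.26 and 0.14, against 0.85 in the background fit. Of the calls, 54.1% and 51.9% were gonidial, against 64.2% in the background fit. Limits of the rule gave 153 genes at 50 CPM, 36 at 200 CPM, 153 at a ratio of 8 and 49 at a ratio of 32. Leaving out each library gave 70 to 97 genes, of which 67 and 78 were among the 80 without somatic replicate 1 and without somatic replicate 2. The median ratio of the original 80 genes then ran between 36.7 (without somatic replicate 1) and 56.4. The share of gonidial counts was 5.26% of the total without the upper 0.3% of counts, against 3.51%. Over all genes, 6233 were called gonidial and 3471 somatic. Of the 8826 genes with at least 10 counts in every library, 3479 and 2271 were called. Their median log2 change was 0.48, against 0.85 in the background fit. The cause of the changes under these settings was not tested. With the replicate block, 6215 and 3449 genes were called, and the numbers do not pair the samples, since each culture gave a single cell-type (the deviations of the libraries numbered 1 correlated at -0.09). With 2 libraries in a group, the spread of any gene is known poorly, and ratios of genes with under 10 somatic counts are limited by depth.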

Other observations

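The same limits turned round, to unlisted genes with at least 100 CPM in somatic cells and at least 16 times the gonidial mean, held 349 genes, against 80 for gonidia. These somatic genes took 0.273% ± 0.0182 of gonidial counts and 19.5% ± 1.26 of somatic counts (SD, n = 2 each), whereas the 80 genes took 3.51% of gonidial counts. Among the 8 unlisted genes past level and ratio with at most 3 counts in each somatic library, Vocar.0001s0298 was counted 5039 and 5050 times in gonidia, against 0 and 1 times in somatic cells.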
